A study of Mus musculus with 3 samples.

Results

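Enzymes of 5 families that modify and conjugate foreign compounds were followed through the epithelium of the mouse small intestine. The members were all gene symbols that begin with Cyp1 to Cyp4 (cytochrome P450 monooxygenases), Ces1 to Ces3 (carboxylesterases), Gsta, Gstk, Gstm, Gstp, Gstt, Gsto or Gstz (cytosolic and mitochondrial glutathione transferases), Ugt1a, Ugt2a or Ugt2b (UDP-glucuronosyltransferases) and Sult1 or Sult2 (sulfotransferases), without pseudogene symbols, and with at least 200 UMIs in the data. Of 155 such symbols among the 31053 genes listed, 70 reached this limit. They were 27 of 82 Cyp, 9 of 17 Ces, 20 of 22 Gst, 9 of 19 Ugt and 5 of 15 Sult symbols. Just inside the limit were Cyp2d10 with 211 UMIs and Gsta2 with 219 UMIs, and just outside it were Cyp2c38 with 196, Cyp2d40 with 195, Ces2h with 189 and Ces1c with 187 UMIs.

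Small intestinal epithelium was isolated from wildtype male C57BL/6N mice aged 12 weeks, and the cells of 3 mice were pooled before sequencing, so that no value can be assigned to an animal. The 3 groups are the segments of the small intestine from proximal to distal, duodenum, jejunum and ileum, with 1 library of the 10x Genomics method for each. No treatment or transgene distinguished these groups, and there were no replicates of a segment. A difference between segments and a difference between libraries therefore cannot be told apart, and intervals given for a single library cover counting error only.

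Foreign compounds that enter with food are handled in steps. In phase I, P450 enzymes insert oxygen and carboxylesterases cleave esters and amides, which exposes reactive or polar groups. In phase II, glutathione transferases, UDP-glucuronosyltransferases and sulfotransferases attach glutathione, glucuronic acid or sulfate, and exporters move the products out of the cell. In the gut these enzymes are known mainly from enterocytes, the absorptive cells, where they contribute to the first pass of oral drugs. Enterocytes are born in the crypt and move up the villus until they are shed at its tip.

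Within the filters of the study lay 4255 of 9501 barcodes of the duodenum, 4360 of 8139 of the jejunum and 8071 of 9595 of the ileum. The kept cells had a median of 12424, 11737 and 5536 UMIs, and 27.1%, 27.2% and 11.1% of their UMIs were mitochondrial. Between 4 and 12 kept barcodes were shared by each pair of libraries. Clustering without any of the 155 symbols and naming by marker lists gave 11772 enterocytes, 748 goblet cells, 302 tuft cells, 224 crypt stem and cycling cells, 171 enteroendocrine cells, 24 Paneth cells, 1636 T cells, 613 B cells, 87 plasma cells and 210 myeloid cells, while 899 cells stayed unnamed. Of the unnamed cells, 873 formed a cluster that matched the enterocyte list best but was led by pancreatic enzymes. The list of pancreatic enzymes that left it unnamed was set after the clusters were seen. The unnamed cells were part of neither the zones nor the levels of enterocytes. The unit used for levels is the number of UMIs of a gene per 10000 non-mitochondrial UMIs of the summed cells. Because 1 UMI stands for 1 captured transcript end, levels were compared between cells for the same gene and not between genes. Values of the 3 segments are always given in the order duodenum, jejunum and ileum. Counts are uncertain for members whose last 500 transcript bases share 50-base words with other genes, such as Cyp2c68 (51.2% of its words), Ces2c (35.7%), Cyp3a44 (35.3%) and Gsta1 (27.7%).

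Stretches of 120 bases before the RefSeq start (GRCm38.p6) are shown here to present what lies upstream of members that moved in opposite directions along the villus. They belong to the most counted members higher in the upper villus (Cyp3a13, Gsto1) and lower there (Cyp3a25, Gsta1) whose stretch holds at most 13 bases of the GENCODE gene, and to a pair of members that carry the letters CAAAGTCCA of an HNF4 site. Capitals mark the searched motif, and all sequences are written 5′ to 3′ on the strand of the gene.
Cyp3a13 (chr5:137921620-137921739, strand minus): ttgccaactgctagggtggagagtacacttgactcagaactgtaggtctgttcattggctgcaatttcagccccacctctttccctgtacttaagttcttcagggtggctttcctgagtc
Cyp3a25 (chr5:146009619-146009738, strand minus): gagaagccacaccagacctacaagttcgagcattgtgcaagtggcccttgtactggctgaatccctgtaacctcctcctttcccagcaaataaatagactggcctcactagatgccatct
Gsto1 (chr19:47854853-47854972, strand plus): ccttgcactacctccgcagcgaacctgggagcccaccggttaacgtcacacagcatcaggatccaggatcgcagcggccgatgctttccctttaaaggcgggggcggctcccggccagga
Gsta1 (chr9:78230549-78230668, strand plus): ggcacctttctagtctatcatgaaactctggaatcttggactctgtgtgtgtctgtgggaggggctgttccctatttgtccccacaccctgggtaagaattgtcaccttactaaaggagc
Cyp2c65 (chr19:39060886-39061005, strand plus): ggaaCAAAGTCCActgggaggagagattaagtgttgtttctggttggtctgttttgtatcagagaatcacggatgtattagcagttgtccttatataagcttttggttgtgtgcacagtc
Cyp2c68 (chr19:39741102-39741221, strand minus): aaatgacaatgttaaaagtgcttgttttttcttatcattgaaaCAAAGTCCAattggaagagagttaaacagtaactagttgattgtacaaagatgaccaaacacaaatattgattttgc

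RefSeq gave promoters for 61 of the 70 members, 75 starts in all, and 5 motifs were searched on both strands of the 250 bases upstream. The HNF4 letters CAAAGTCCA were found at 3 of the 75 starts (4.0%; Cyp2c65, Cyp2c68 and Cyp3a11), against 0.384% of 32851 promoters of the genome. The HNF1 motif GTTAAT was found at 10 starts (13.3%, against 6.43%) and the TATA box TATAAA at 12 (16%, against 12.4%). The antioxidant response element TGACNNNGC occurred at 5 starts (6.67%, against 10.2%) and the core of the xenobiotic response element GCGTG at 15 (20.0%, against 28.2%). Members in tandem arrays have related promoters, and a match describes letters only. The stretch of Cyp3a11 is not shown, since 110 of its 120 bases lie inside the gene as GENCODE M21 draws it.

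Transcripts of the 70 members were concentrated in enterocytes. Of all their UMIs in cells of a named class, 96.1% came from enterocytes, with 97.1% for Cyp, 97.2% for Ces, 91.1% for Gst, 95.8% for Ugt and 96.4% for Sult. The 899 unnamed cells were left out of these shares. The limit of 200 UMIs was set over all barcodes and so favoured genes counted in enterocytes. The part of this choice in these shares was not tested. Enterocytes also held most of all RNA counted. In the duodenum they had 36368515 of 43189693 non-mitochondrial UMIs of kept cells, in the jejunum 38136574 of 43919028 and in the ileum 36764922 of 57968862. Summed over the members, enterocytes of the duodenum held 161 UMIs per 10000, those of the jejunum 123 and those of the ileum 78.7. The families did not share this decline equally. Summed Gst transcripts went from 31.0 in the duodenum over 13.4 in the jejunum to 6.15 in the ileum, and Ugt transcripts from 9.28 over 4.39 to 2.60. Cyp transcripts went from 80.7 over 62.6 to 32.1 and Sult transcripts from 19.8 over 15.3 to 12.0. The carboxylesterases were the exception, with 20.6, 27.1 and 25.8 UMIs per 10000 in this order.

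**Figure D1:**
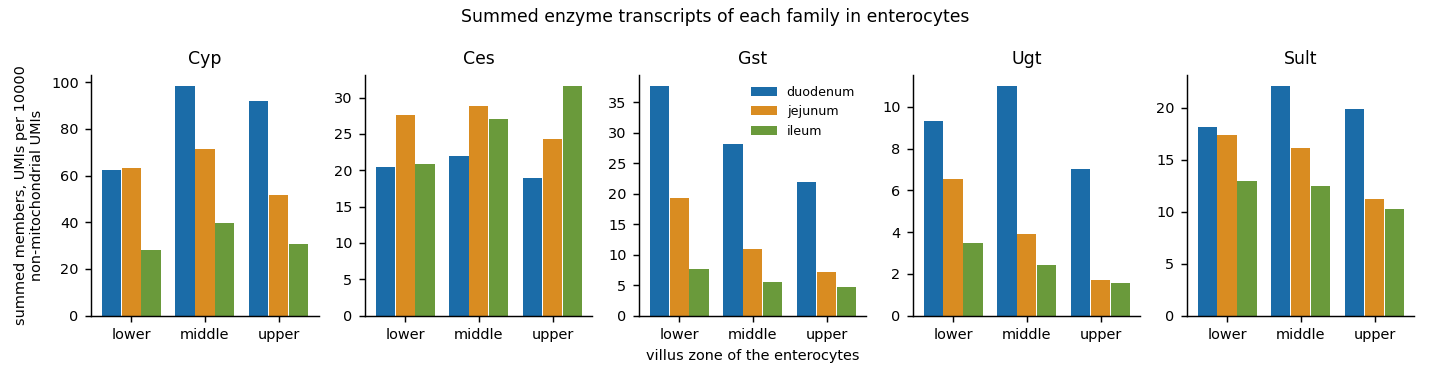
Bars give the summed level of each enzyme family in enterocytes (y axis, UMIs per 10000 non-mitochondrial UMIs, a separate scale per family) by villus zone (x axis) and segment (colour), with 1 library per segment and therefore no error bar. Summed Gst transcripts went from 37.7 in the lower to 21.9 in the upper zone of the duodenum. In the jejunum they went from 19.3 to 7.22 and in the ileum from 7.63 to 4.68. Cyp transcripts went from 62.6 to 91.8 in the duodenum, from 63.4 to 51.8 in the jejunum and from 28.1 to 30.7 in the ileum. Ces transcripts of the ileum went from 20.9 to 31.6.

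To order enterocytes along the villus, each cell received a score from 7 genes of the villus tip and 7 of its bottom, none of them a member, and the enterocytes of each library were divided by this score into 3 zones of equal size, called lower, middle and upper. Creb3l3, a gene of the upper villus that was not part of the score, was counted at 3.58, 6.27 and 2.28 UMIs per 10000 in the lower zone of duodenum, jejunum and ileum and at 10.5, 16.8 and 11 in the upper zone. Nlrp6, a gene of the villus base also outside the score, went from 2.15, 2.07 and 1.78 to 0.282, 0.0583 and 0.0699. Creb3l3 and Nlrp6 thus ordered the lower and the upper zone alike in all libraries. The other genes set aside for this check, among them all those of the middle villus, are not given here. Between 10.4% and 12.2% of the enterocytes of a library lay within 0.1 score units of a boundary between zones. Median UMIs per cell also moved with the score, from 16682 to 9216 in the duodenum, from 15791 to 11552 in the jejunum and from 8065 to 7140 in the ileum between the lower and the upper zone, and the median mitochondrial share in the ileum from 15.8% to 9.08%. The part of either in the results that follow was not tested.

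Along this axis more members were lower than higher in the upper zone, although their summed level fell steadily in the jejunum only. From the lower over the middle to the upper zone, the summed levels were 148, 182 and 159 UMIs per 10000 in the duodenum. In the jejunum they were 134, 131 and 96.2, and in the ileum 73.2, 87.0 and 78.8. The 9 sums of 3 zones and 3 libraries were compared with the edgeR quasi-likelihood test and Benjamini-Hochberg adjustment over 11725 genes, with the library as a block. Of 68 members tested, 12 were higher and 39 lower in the upper than in the lower zone, and 17 did not pass the threshold. Among all genes tested, 28.7% were higher and 33.5% lower. The median log2 fold change was -1.10 for the members and -0.09 for all genes. The spread in this test is that between 3 segments of the same pooled mice, not that between animals. A lower sum may hold fewer cells with a transcript or less of it per cell. The sums do not separate these, and which of them applied was not tested. When library totals were used without TMM scaling, a setting chosen after seeing the data, the median of all genes shifted to -0.51, and the members split into 7 higher and 44 lower (16.4% and 43.8% of all genes).

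By family, the calls were divided as follows. Gst had 1 member higher, 17 lower and 2 not called, with a median log2 fold change of -2.26. Ugt had 1 higher, 7 lower and 1 not called (median -1.47), and Ces 3 higher, 5 lower and 1 not called (median -1.62). Cyp was divided, with 6 higher, 9 lower and 11 not called (median -0.10). Of 4 Sult members tested, 1 was higher, 1 lower and 2 not called (median -0.04). Cyp4f18 and Sult1a1 had too few counts in enterocytes to be tested. Without TMM scaling the higher members Cyp3a44, Cyp2d22, Sult2b1, Gsto1 and Cyp4f13 no longer passed the threshold, although none changed sign. Cyp4f14, Cyp2c65, Cyp2j9, Gstk1 and Ugt2b34, not called with TMM, were then called lower (edgeR adjusted p = 0.0146, 0.00998, 0.0449, 0.0322 and 0.00768). Without the jejunum 13 calls were lost (Cyp2c66, Cyp2s1, Cyp3a25, Cyp4a10, Ces2a, Gsta3, Gstm6, Gstt1, Gstt2, Gstt3, Ugt1a1, Ugt2a3 and Ugt2b35), without the ileum 6 (Cyp3a44, Ces2a, Ces2b, Gstt1, Gstt2 and Ugt1a1) and without the duodenum 2 (Gstm6 and Gstt3). Gsta2, Sult1c2 and Ugt2b38 had a value in 12 of 13 alternatives, and a missing value was not counted as a loss. In enterocytes of the duodenum they had 135, 274 and 1684 UMIs. They had 25, 6 and 6 in the jejunum and 2, 49 and 0 in the ileum, so their calls rest mainly on the duodenum.

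**Figure D2:**
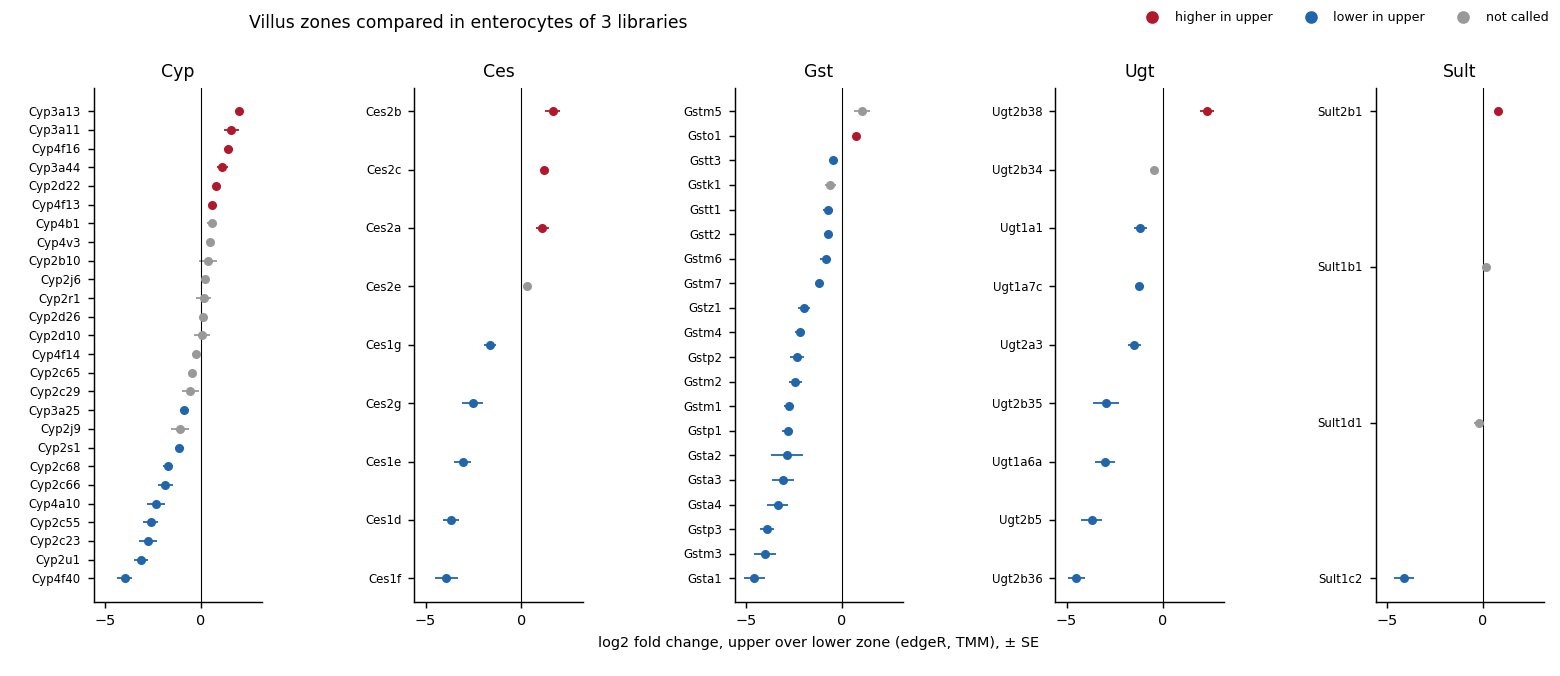
Points give the log2 fold change of each tested member between the upper and the lower villus zone of enterocytes (x axis, edgeR with TMM scaling, bars ± SE over 3 libraries), with members of a family in rows and the call as colour. Gst members reach from Gsta1 at -4.57 to Gstm5 at 1.05, while Cyp members spread on both sides of 0.

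Among the P450 enzymes, the Cyp3a genes, whose products oxidise a large share of drugs and steroids, included the most marked increases. Cyp3a13 (ENSMUSG00000029727; chr5:137892932-137921619) was counted at 9.43, 6.03 and 2.39 UMIs per 10000 in the lower zone of duodenum, jejunum and ileum and at 27.9, 14 and 8.03 in the upper zone. It rose from zone to zone in each library (log2 fold change 1.98, SE 0.19, edgeR adjusted p = 7.61e-05), and it was the single member that was also higher in the upper than in the middle zone. Cyp3a11 (ENSMUSG00000056035; chr5:145854426-145879964) was counted at 11.2, 23.4 and 25.5 in the lower, middle and upper zone of the duodenum, at 8.85, 13.3 and 9.25 in the jejunum and at 0.409, 1.74 and 2.01 in the ileum. Its upper zone exceeded the lower in every library, by little in the jejunum (log2 fold change 1.58, SE 0.39, edgeR adjusted p = 0.00713). Cyp3a44, a rarely counted neighbour with sequence shared with other genes, also rose (log2 fold change 1.12, SE 0.31, edgeR adjusted p = 0.0124), a call that was lost without the ileum, whereas Cyp3a25 in the same array went from 2.24, 3.48 and 0.907 in the lower to 1.61, 1.31 and 0.197 in the upper zone (log2 fold change -0.87, SE 0.23, edgeR adjusted p = 0.0107).

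The Cyp4f genes, which encode fatty acid and leukotriene hydroxylases, also moved apart. Cyp4f16 went from 0.639, 1.08 and 1.48 in the lower zone of the 3 segments to 0.942, 2.42 and 3.46 in the upper zone (log2 fold change 1.42, SE 0.24, edgeR adjusted p = 0.00118). Cyp4f40, from the same array on chromosome 17, went from 0.14, 0.187 and 0.389 to 0.0163, 0.0047 and 0.0117 (log2 fold change -3.98, SE 0.40, edgeR adjusted p = 9.16e-05). In both genes the upper and lower zones lay apart in every library, in opposite directions. Cyp4f14 was counted at 12.4, 11.3 and 11.4 in the lower and 10.4, 4.88 and 7.13 in the upper zone and did not pass the threshold (log2 fold change -0.26, SE 0.19, edgeR adjusted p = 0.25), although it was called lower without TMM scaling (log2 fold change -0.68, edgeR adjusted p = 0.0146). Cyp4f13 rose slightly (log2 fold change 0.58, SE 0.14, edgeR adjusted p = 0.00557), from 0.767, 0.977 and 0.622 to 1.12, 0.834 and 0.641, but its level per 10000 in the jejunum was lower in the upper zone.

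The Cyp2 genes were lower or not called, apart from Cyp2d22 (log2 fold change 0.79, SE 0.18, edgeR adjusted p = 0.00561). Cyp2d22 went from 0.522, 0.803 and 0.32 in the lower to 0.768, 0.756 and 0.477 in the upper zone. Its level per 10000 in the jejunum was thus not higher in the upper zone, and it was highest in the middle zone of every library. Cyp2u1, a fatty acid hydroxylase, went from 0.264, 0.217 and 0.242 to 0.0523, 0.0132 and 0.00896 (log2 fold change -3.14, SE 0.37, edgeR adjusted p = 0.00018). The Cyp2c array on chromosome 19, whose members oxidise drugs and arachidonic acid, had 3 of 5 members lower. They were Cyp2c55 (log2 fold change -2.62), Cyp2c66 (-1.85) and Cyp2c68 (-1.72). Cyp2c65, with 3.1, 2.17 and 0.669 in the lower and 2.57, 0.73 and 0.37 in the upper zone, did not pass (log2 fold change -0.45, SE 0.21, edgeR adjusted p = 0.0858). Cyp2d26, Cyp2j6, an epoxygenase of fatty acids, and the fatty acid hydroxylase Cyp4v3 had their highest level in the middle zone of every library. Cyp2d26 was counted at 7.28, 8.39 and 3.93 there, against 6.02, 6.92 and 2.52 in the lower and 4.72, 5.73 and 1.94 in the upper zone.

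Carboxylesterases were divided by subfamily. The 4 Ces1 members, which lie together on chromosome 8 (chr8:93166068-93337308) and belong to a subfamily known for cleaving lipid and drug esters, were all lower in the upper zone. Ces1f was counted at 1.39, 1.19 and 0.322 UMIs per 10000 in the lower, middle and upper zone of the duodenum, at 0.941, 0.164 and 0.0188 in the jejunum and at 1.05, 0.135 and 0.0206 in the ileum. It was thus nearly confined to the lower zone in the jejunum and the ileum, and extended into the middle zone in the duodenum (log2 fold change -3.93, SE 0.59, edgeR adjusted p = 0.000626). Ces1d went from 0.636, 0.392 and 0.109 to 0.0813, 0.0179 and 0.000896 (log2 fold change -3.68, SE 0.42, edgeR adjusted p = 0.000171).

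Of the 5 Ces2 members, which lie further along the same chromosome (chr8:104734003-104969537) and include esterases that activate ester prodrugs, 3 were higher. Ces2c was counted at 4.14, 4.92 and 3.75 in the lower zone and 7.46, 6.16 and 7.76 in the upper zone (log2 fold change 1.19, SE 0.20, edgeR adjusted p = 0.000955). Ces2a went from 1.19, 3.33 and 3.41 to 1.23, 3.92 and 10.3, so that the difference was clear in the ileum and small in the duodenum (log2 fold change 1.08, SE 0.33, edgeR adjusted p = 0.0201). Its call was lost when the jejunum or the ileum was left out. Another, Ces2b, had few counts (log2 fold change 1.63, SE 0.39, edgeR adjusted p = 0.00666) and lost its call without the ileum. It went from 0.0342, 0.0311 and 0.0576 to 0.135, 0.0254 and 0.159, so that its level per 10000 in the jejunum was not higher in the upper zone. Ces2e, with 11.7, 17.3 and 12.4 in the lower and 9.25, 14.2 and 13.3 in the upper zone, was not called (log2 fold change 0.29, SE 0.19, edgeR adjusted p = 0.212). Ces2g went the other way, from 1.04, 0.385 and 0.0129 to 0.266, 0.0216 and 0.00448 (log2 fold change -2.54, SE 0.54, edgeR adjusted p = 0.00358).

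The glutathione transferases fell toward the villus tip with 3 exceptions. Gsta1 (ENSMUSG00000074183; chr9:78230656-78242684), an alpha class enzyme, was counted at 11.9, 4.23 and 1.23 UMIs per 10000 in the lower, middle and upper zone of the duodenum, at 3.59, 0.195 and 0.0461 in the jejunum and at 0.453, 0.0345 and 0.0117 in the ileum. Each step up the villus lowered the level. In all 3 libraries most of the difference in UMIs per 10000 lay between the lower and the middle zone. As a ratio, the step from the middle to the upper zone was the larger one in the duodenum. Gsta1 was called lower in the upper than in the lower zone (log2 fold change -4.57, SE 0.53, edgeR adjusted p = 0.000179). This was the lowest log2 fold change of the 68 members. Gsta4, which conjugates hydroxynonenal, a product of lipid peroxidation, went from 5.31, 0.994 and 0.335 to 1.52, 0.0414 and 0.00538 (log2 fold change -3.34, SE 0.54, edgeR adjusted p = 0.000914). Gsta2 and Gsta3 were also lower, so that all 4 alpha class members fell. Of the 50-base words in the last 500 transcript bases of Gsta2, 39.5% also occur in other genes, mainly Gsta1. Gsta3 lost its call without the jejunum.

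In the mu class array on chromosome 3, 6 of 7 members were lower. Gstm3 (ENSMUSG00000004038; chr3:107963696-107969283) went from 2.75, 1.73 and 0.0965 to 0.302, 0.0367 and 0.00269 (log2 fold change -4.01, SE 0.57, edgeR adjusted p = 0.00045), and Gstm1 from 1.29, 0.889 and 0.116 to 0.225, 0.0536 and 0.0161 (log2 fold change -2.75, SE 0.27, edgeR adjusted p = 8.83e-05). Gstm5 was the one not called, with 0.335, 0.162 and 0.0984 in the lower and 0.204, 0.285 and 0.271 in the upper zone (log2 fold change 1.05, SE 0.43, edgeR adjusted p = 0.0599). Its level was higher in the upper zone of the jejunum and the ileum and lower in that of the duodenum. All 3 pi class members were lower, among them Gstp1, from 0.895, 1.02 and 1.1 to 0.228, 0.0621 and 0.0726 (log2 fold change -2.84, SE 0.31, edgeR adjusted p = 0.000135), and Gstp3, a rarely counted gene, at log2 fold change -3.91. Reads of Gstp1 and Gstp2 are hard to separate, since 78% of the 50-base words of the Gstp1 end also occur in Gstp2.

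The theta, kappa, zeta and omega classes completed the family. Gstt1 went from 2.59, 1.23 and 0.243 to 2.26, 0.482 and 0.0502 (log2 fold change -0.74, SE 0.25, edgeR adjusted p = 0.0303), with its highest duodenal level in the middle zone, and Gstt2 and Gstt3 had log2 fold changes of -0.75 and -0.47. The kappa class gene Gstk1 did not pass the threshold (log2 fold change -0.60, SE 0.28, edgeR adjusted p = 0.088). Gstz1, which also acts in tyrosine breakdown, was lower (log2 fold change -1.98, SE 0.31, edgeR adjusted p = 0.000771). Gsto1, an omega class enzyme that reduces rather than conjugates its substrates, was the single glutathione transferase called higher (log2 fold change 0.72, SE 0.16, edgeR adjusted p = 0.00413). Its levels were 7.84, 5.61 and 3.44 in the lower and 13.1, 5.12 and 3.8 in the upper zone, so that in UMIs per 10000 the difference was seen in the duodenum, hardly in the ileum and not in the jejunum.

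**Figure D3:**
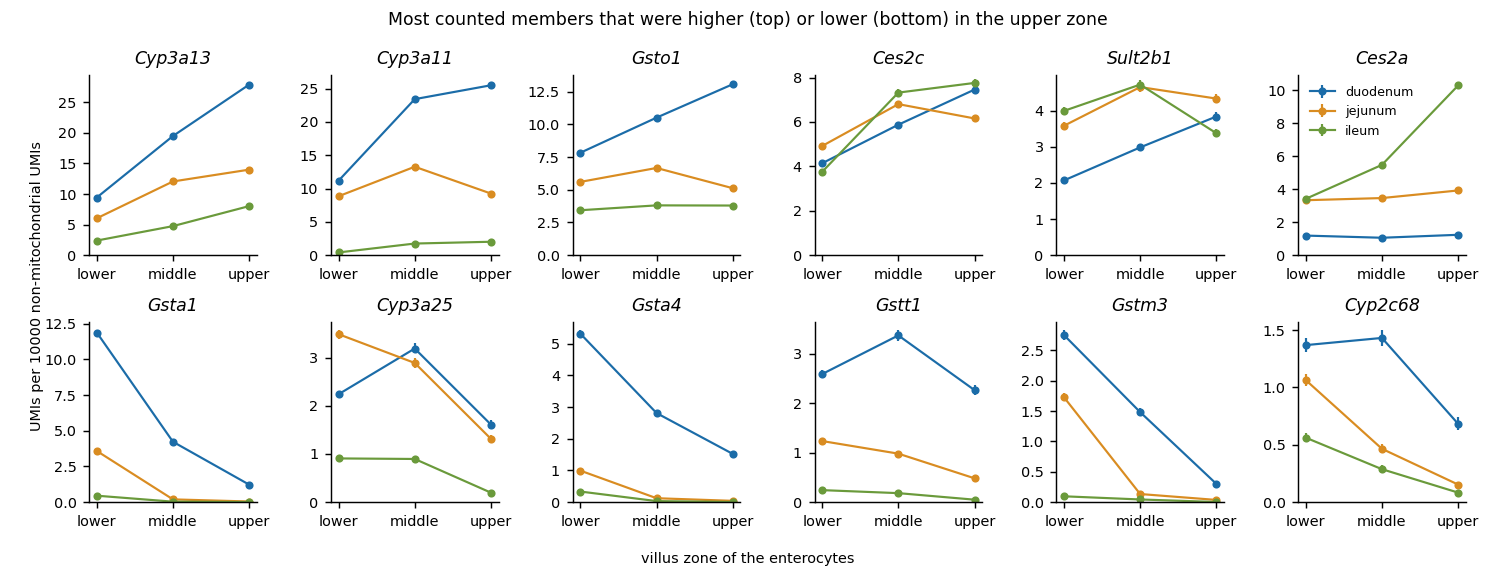
Levels of the 6 most counted members called higher (top) and the 6 called lower (bottom) in the upper zone are plotted by villus zone (x axis) in UMIs per 10000 non-mitochondrial UMIs (y axis), with a line per segment and bars for the 95% interval of counting error. Cyp3a13 rises in each segment while Gsta1 falls in each, and Gsto1 and Sult2b1 rise steadily in the duodenum only.

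Among the UDP-glucuronosyltransferases, 7 of 9 members were lower in the upper zone. Ugt2b34 was counted at 6.94, 4.5 and 2.62 UMIs per 10000 in the lower and 5.59, 1.46 and 1.47 in the upper zone and did not pass the threshold (log2 fold change -0.46, SE 0.20, edgeR adjusted p = 0.076). Ugt2b36 went from 0.0819, 0.121 and 0.234 to 0.00232, 0.00188 and 0.00896 (log2 fold change -4.49, SE 0.45, edgeR adjusted p = 8.95e-05), Ugt2b5 from 0.262, 0.177 and 0.302 to 0.0348, 0.00376 and 0.0125 (log2 fold change -3.70, SE 0.54, edgeR adjusted p = 0.00052) and Ugt2a3 from 1.37, 1.48 and 0.15 to 0.492, 0.183 and 0.0708 (log2 fold change -1.47, SE 0.35, edgeR adjusted p = 0.00628). These genes lie in 1 array on chromosome 5 with Ugt2b38, which was higher. Ugt2b38 was nearly restricted to the duodenum, with 0.161, 0.708 and 0.714 from its lower to its upper zone, and had 6 UMIs in enterocytes of the jejunum and 0 in those of the ileum, so that its fold change of 2.31 (SE 0.38) rests on 1 library. The 3 Ugt1a members, including the bilirubin-conjugating Ugt1a1, were also lower. Transcripts of the Ugt1a locus share their last exons, so counts of Ugt1a1, Ugt1a6a and Ugt1a7c could not be assigned to 1 of them with certainty.

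The sulfotransferases differed from one another. Sult1b1, which sulfates phenols and thyroid hormones, was counted at 9.15, 8.31 and 4.44 in the lower and 9.79, 5 and 3.47 in the upper zone, and Sult1d1, which sulfates catecholamines and other phenols, went from 6.81, 5.5 and 4.55 to 6.3, 1.84 and 3.42. Neither was called (edgeR adjusted p = 0.47 and 0.491). The cholesterol sulfotransferase gene Sult2b1 was called higher, from 2.07, 3.58 and 3.99 to 3.83, 4.33 and 3.37 (log2 fold change 0.78, SE 0.16, edgeR adjusted p = 0.00295), though its level per 10000 in the ileum was lower in the upper zone. Sult1c2 went from 0.139, 0.00373 and 0.0298 to 0.00813, 0 and 0.000896, and was counted mainly in the lower zone of the duodenum (log2 fold change -4.12, SE 0.52, edgeR adjusted p = 0.000264).

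The steps between neighbouring zones placed these changes. From the lower to the middle zone 11 members were higher and 21 lower (15.6% and 18.2% of all genes), and from the middle to the upper zone 1 was higher and 16 were lower (9.37% and 8.57%). Of the 11 higher members, 8 were Cyp, and of the 21 lower members, 10 were Gst. The zone with the highest level was the same in all 3 libraries for 43 of 69 members with a count in each. It was the lower zone for 33 (34.5% of all genes), among them 15 Gst and 7 Ugt members, the middle zone for 7 (5.50% of all genes), among them 6 Cyp members, and the upper zone for 3 (10.3% of all genes), of which 2 were Cyp and 1 Ces. Of the 62 members with at least 20 UMIs in each library, it was the lower zone for 29, the middle zone for 7 and the upper zone for 3 (36.7%, 5.70% and 10.9% of all genes).

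Other genes of xenobiotic handling, from a list of 69 related genes, were tested along the same axis. Of 63 tested, 18 were higher and 34 lower in the upper zone, against 28.7% and 33.5% of all genes. Without TMM scaling 5 were higher and 37 lower (16.4% and 43.8% of all genes). Oxidising and reducing enzymes outside the member families were mostly lower (4 higher and 22 lower of 31), and this was so without TMM scaling too (2 and 25). Enzymes of conjugation and cofactor supply had 7 higher and 7 lower of 16, exporters 2 and 1 of 4, and regulators 5 and 4 of 12. Without TMM scaling these became 2 and 7, 0 and 1, and 1 and 4. Por, the reductase that passes electrons to microsomal P450 enzymes, was counted at 1.04, 1.41 and 0.771 UMIs per 10000 in the lower zone of the 3 segments and at 4.94, 8.69 and 2.42 in the upper zone (log2 fold change 2.62, SE 0.25, edgeR adjusted p = 7.34e-05). Hnf4a, a transcription factor of the enterocyte, was counted at 2.42, 2.54 and 2.99 UMIs per 10000 in the lower zone of the 3 segments and at 5.35, 6.7 and 7.94 in the upper zone (log2 fold change 1.76, SE 0.20, edgeR adjusted p = 0.000143). Both were higher in the upper zone of every library. The N-acetyltransferase gene Nat2 was called higher as well (log2 fold change 1.29). Slc35d1, which carries UDP-glucuronic acid into the endoplasmic reticulum, was called higher (1.06), but went from 0.662 to 2.44 UMIs per 10000 in the duodenum, from 0.518 to 0.51 in the jejunum and from 0.499 to 0.464 in the ileum. Its higher level was thus seen in the duodenum alone, and the call was lost without TMM scaling (edgeR adjusted p = 0.137). Lower were Maob, a monoamine oxidase (-4.16), Mgst1, a microsomal glutathione transferase outside the cytosolic classes (-3.70), the alcohol dehydrogenase Adh4 (-3.61) and the aldo-keto reductase Akr1c19 (-3.50).

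Outside enterocytes, members were mostly lower, with exceptions in goblet, tuft, enteroendocrine and crypt cells. UMIs were summed per library and cell class and compared in 1 edgeR fit over 12717 genes, of which 59 were members. Members had passed a limit of 200 UMIs over all barcodes, which favoured genes counted in enterocytes. Its part in the counts that follow was not tested. Against enterocytes, goblet cells had 2 members higher and 41 lower (15.1% and 18.1% of all genes), tuft cells 1 and 45 (19.9% and 22.2%), enteroendocrine cells 1 and 42 (24.4% and 25.5%) and crypt stem and cycling cells 2 and 42 (27.9% and 31.8%). The median log2 fold changes of the members were -2.20, -2.91, -2.82 and -2.76 in this order, and those of all genes lay between -0.16 and -0.07. In crypt cells 21 of 23 Cyp members were lower (median -4.28), while in each of the 4 classes 8 or 9 of 18 Gst members were lower. Without TMM scaling, chosen after seeing the data, the median of all genes moved to -0.42, 0.26, 0.44 and 0.47 in goblet, tuft, enteroendocrine and crypt cells. The members then split into 2 higher and 46 lower, 2 and 41, 3 and 36, and 6 and 35, where 10.5% and 29.5%, 28.8% and 14.7%, 36% and 15.7%, and 40.6% and 19.3% of all genes were called. The Gst members called lower then numbered 11, 6, 8 and 5, with 4 instead of 1 called higher in crypt cells, and 18 Cyp members were lower in crypt cells.

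Transcripts of enterocytes were also counted in the other cells. Enterocyte marker genes reached a median of 7.13% to 10.5% of their enterocyte level in goblet cells of the 3 libraries, 11.6% to 13.3% in tuft cells, 10.1% to 14.1% in enteroendocrine cells and 4.02% to 6.51% in crypt cells. The members reached a median of 14% to 16%, 14.9% to 19.0%, 15.9% to 25.3% and 17.3% to 32.4%. In T cells, a type that should lack most of these enzymes, the markers reached 7.67% to 25.6% and the members 7.90% to 23.6%. Single markers exceeded 50% of their enterocyte level, namely Fabp1 in tuft cells of all libraries, Sis in enteroendocrine cells of the jejunum and ileum and Anpep in myeloid cells of the duodenum. The part of free RNA in the levels outside enterocytes was not tested.

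The exceptions were few and named. Gsta4 was counted at 11.3, 4 and 0.276 UMIs per 10000 in goblet cells of duodenum, jejunum and ileum, against 3.63, 0.468 and 0.151 in enterocytes, and was higher in goblet cells of every library (log2 fold change 2.58, SE 0.69, edgeR adjusted p = 0.00411). Cyp2s1, a P450 found mainly outside the liver, was counted at 0.447, 0.607 and 0.318 in goblet cells and 0.274, 0.181 and 0.266 in enterocytes (log2 fold change 1.30, SE 0.31, edgeR adjusted p = 0.0018). Both calls were lost without the jejunum, and DESeq2 did not call Gsta4. In the ileum, the goblet cell level of Gsta4 lay below that of lower zone enterocytes, 0.335, and below that of crypt cells, 0.711. The ileal goblet cell level of Cyp2s1 likewise lay below that of lower zone enterocytes, 0.431. Gsta1, in contrast to most members, did not differ beyond its spread, with 7.55, 1.47 and 0.046 in goblet cells and 6.97, 1.58 and 0.203 in enterocytes (log2 fold change -0.09, SE 0.50, edgeR adjusted p = 0.93).

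Gstz1 was counted at 0.741, 0.568 and 1.33 in enteroendocrine cells, against 0.273, 0.232 and 0.16 in enterocytes, and was higher in all 3 libraries (log2 fold change 1.51, SE 0.29, edgeR adjusted p = 0.000101). Gstm5 was higher in crypt cells, at 0.842, 0.813 and 0.538 against 0.274, 0.188 and 0.145 (log2 fold change 1.2, SE 0.29, edgeR adjusted p = 0.000829), and in tuft cells, at 0.958, 0.363 and 0.28 (log2 fold change 0.93, SE 0.32, edgeR adjusted p = 0.0191). The tuft cell call was lost without the duodenum or the jejunum, with the stricter mitochondrial limit and without the cells richest in enterocyte markers. Gstt1 was counted at 4.5, 1.55 and 0.592 in enteroendocrine cells and 1.74, 1.39 and 1.28 in tuft cells, against 2.75, 0.948 and 0.168 in enterocytes, without passing the threshold in either (edgeR adjusted p = 0.399 and 0.281). Cyp4b1 also kept a level in enteroendocrine cells, 1.1, 1.32 and 2.06 against 1.24, 1.41 and 1.4, and was at most 0.107 in goblet cells.

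A pair of members was scarcely counted in enterocytes at all. Cyp4f18, a leukotriene hydroxylase of leukocytes, was counted at 0.0011, 0.000262 and 0.00299 in enterocytes, but at 0.515, 1.65 and 1.17 in myeloid cells, 0.554, 0.925 and 0.872 in B cells and 0.867, 0.381 and 0.893 in plasma cells. Sult1a1, a phenol sulfotransferase, was counted at 0.686, 0.827 and 0.93 in myeloid cells and at 0.00275, 0.00105 and 0.00381 in enterocytes. In crypt cells it had 4, 3 and 5 UMIs, a level of 0.0259, 0.0353 and 0.0359 and thus 3.78%, 4.28% and 3.86% of that in myeloid cells, and it was called higher than in enterocytes (log2 fold change 2.89, SE 0.57, edgeR adjusted p = 0.000135). In T cells it had 0, 0 and 8 UMIs, in the ileum 1.61% of the myeloid level. The crypt call rests on these few UMIs, and the part of RNA from myeloid cells in it was not tested.

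**Figure D4:**
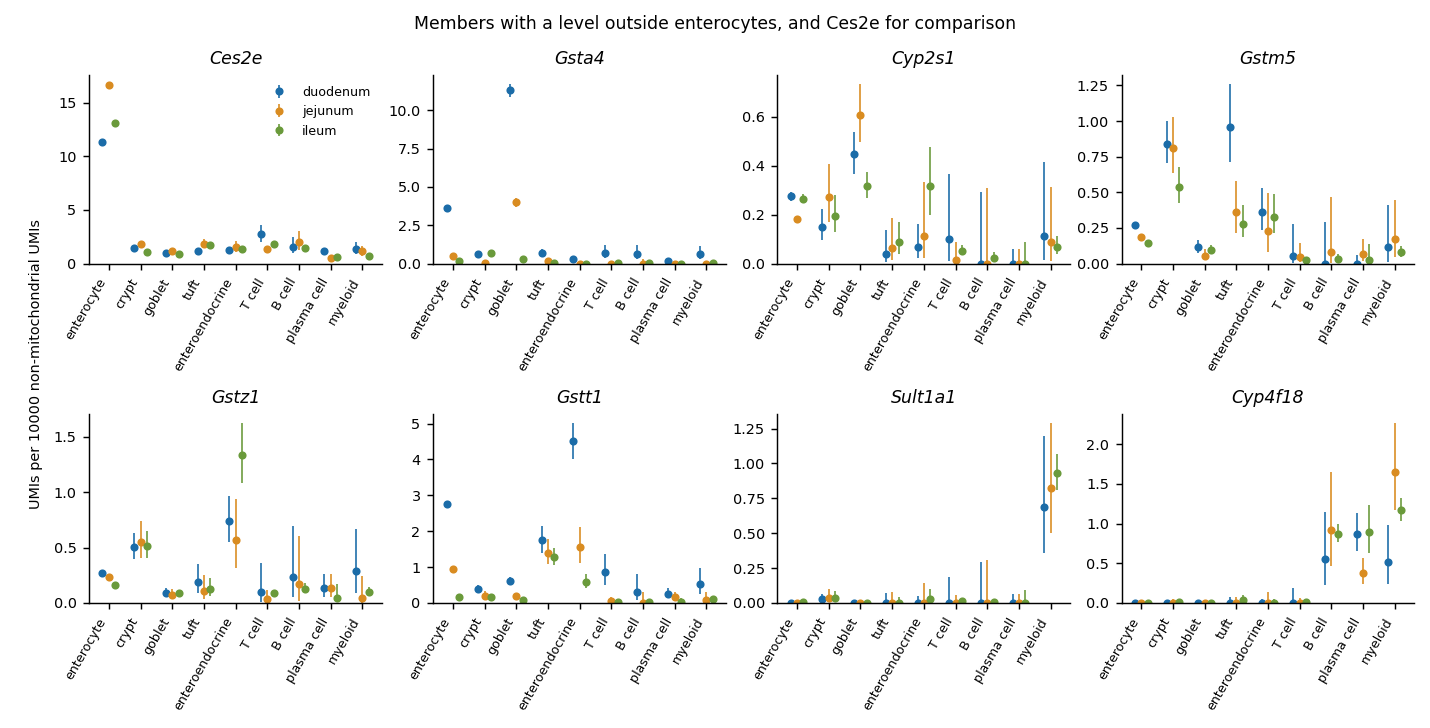
Levels of 7 members counted outside enterocytes, with Ces2e for comparison, are plotted by cell class (x axis) in UMIs per 10000 non-mitochondrial UMIs (y axis, a separate scale per gene), with a point per segment and bars for the 95% interval of counting error. Ces2e is highest in enterocytes, Gsta4 in goblet cells of the duodenum and jejunum, Cyp2s1 in goblet cells of all segments, Gstz1 in enteroendocrine cells, Sult1a1 in myeloid cells and Cyp4f18 in B, plasma and myeloid cells. Enterocytes of all zones are summed here, and those of the lower zone of the ileum exceed goblet cells for Cyp2s1.

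In enterocytes, more members were higher in the proximal than in the distal segment. Segments were compared as levels of 1 library each, with no test, and a fold of at least 2 was counted. Against the jejunum, the duodenum was higher for 26 of 70 members and lower for 3 (11.8% and 6.79% of all genes with a fold). Against the ileum, it was higher for 44 and lower for 5 (15.0% and 13.6%). The jejunum was higher than the ileum for 30 and lower for 4 (6.65% and 13.4%). The median log2 ratio of the members was 0.80 between duodenum and jejunum, 1.49 between duodenum and ileum and 0.72 between jejunum and ileum, against 0.25, 0.17 and -0.06 for all genes. At a stricter mitochondrial limit of 20%, 14 instead of 26 members were higher in the duodenum than in the jejunum, while 45 instead of 44 were higher than in the ileum. The shares of all genes at that limit are not given. The part of the libraries' unequal depth and mitochondrial share in these folds was not tested.

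The level was lower in each next segment from duodenum to ileum for 39 members and higher in each next segment for 5, with no test, against 29.3% and 17.3% of all genes with at least 200 UMIs. The former were 18 of 20 Gst, 7 of 9 Ugt, 8 of 27 Cyp, 4 of 9 Ces and 2 of 5 Sult. In the Gst family, Gsta1 was counted at 6.97, 1.59 and 0.203 UMIs per 10000 in duodenum, jejunum and ileum, a ratio of duodenum to ileum of 34.2-fold (95% interval 31.8 to 36.9). Gstm3 was counted at 1.77, 0.779 and 0.0536 (33.1-fold (95% interval 28.7 to 38.3)), Gsta4 at 3.63, 0.468 and 0.151 (24-fold (95% interval 22 to 26.1)) and Gstt1 at 2.75, 0.948 and 0.168 (16.4-fold (95% interval 15.1 to 17.9)). Gstm6 and Gstm7 were 15.5-fold and 15.2-fold higher in the duodenum. Gsta2 had 135, 25 and 2 UMIs in enterocytes, which gives 68.2-fold (95% interval 18.5 to 569). Gstp1 was nearly even along the gut, with 0.602, 0.503 and 0.555.

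The Cyp family held both steep and flat gradients. Cyp2c29, a liver epoxygenase, had 3901 UMIs in enterocytes of the duodenum, 890 in those of the jejunum and 3 in those of the ileum, a ratio of duodenum to ileum of 1310-fold (95% interval 449 to 6380). Cyp2c66 was counted at 0.903, 0.373 and 0.00734 (123-fold (95% interval 84.3 to 187)) and Cyp3a11 at 18.4, 10.3 and 1.27 (14.6-fold (95% interval 14.1 to 15)). Cyp3a13, which shared the rise along the villus with Cyp3a11, had a flatter course along the gut, with 17, 10.1 and 4.75 (3.57-fold (95% interval 3.51 to 3.63)). Cyp2b10, which is known to be induced through the receptor CAR, was counted at 3.07, 3.46 and 0.239, so that the jejunum was highest and the ileum 12.8-fold below the duodenum. Cyp4f14 and Cyp2s1 hardly differed between duodenum and ileum, with 12.4, 8.61 and 10.7 and 0.274, 0.181 and 0.265. Cyp4f16 was counted at 0.748, 1.74 and 2.62, and was 3.5-fold higher in the ileum than in the duodenum, as Cyp4f40 was 2.04-fold.

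The carboxylesterases were again divided by subfamily. The Ces1 members were highest in the duodenum, with Ces1d at 0.438, 0.199 and 0.05 (8.75-fold (95% interval 7.51 to 10.3)) and Ces1f at 1.07, 0.451 and 0.486 (2.21-fold (95% interval 2.09 to 2.34)). Of the Ces2 members, Ces2a was counted at 1.16, 3.53 and 6.06, and was 5.25-fold higher in the ileum than in the duodenum. Ces2b was 1.81-fold higher there and Ces2e 1.16-fold, with 11.3, 16.7 and 13.1 and its highest level in the jejunum. Ces2c was nearly even, with 5.47, 5.83 and 5.95. Ces2g, also from this array, was counted at 0.721, 0.178 and 0.00816 (88.3-fold (95% interval 61.7 to 131)).

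Among the conjugating enzymes of the other families, Ugt2b34 was counted at 7.07, 3.27 and 2.16 (3.28-fold (95% interval 3.2 to 3.36)) and Ugt2a3 at 1.14, 0.828 and 0.116 (9.85-fold (95% interval 8.92 to 10.9)). Ugt2b38 had 1684 UMIs in the duodenum and 0 in the ileum, and was at least 567-fold higher in the duodenum when 3 counts were taken as the limit for the ileum library. Ugt2b36 went the other way, with 0.0462, 0.0551 and 0.108. Sult1b1 was counted at 9.82, 7.11 and 4.13 (2.38-fold (95% interval 2.33 to 2.42)) and Sult1d1 at 7.15, 4.06 and 3.88. Sult2b1 was lowest in the duodenum, with 2.77, 4.11 and 4, and was 1.44-fold higher in the ileum. Sult1c2 was counted at 0.0753, 0.00157 and 0.0133, hence least in the jejunum.

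**Figure D5:**
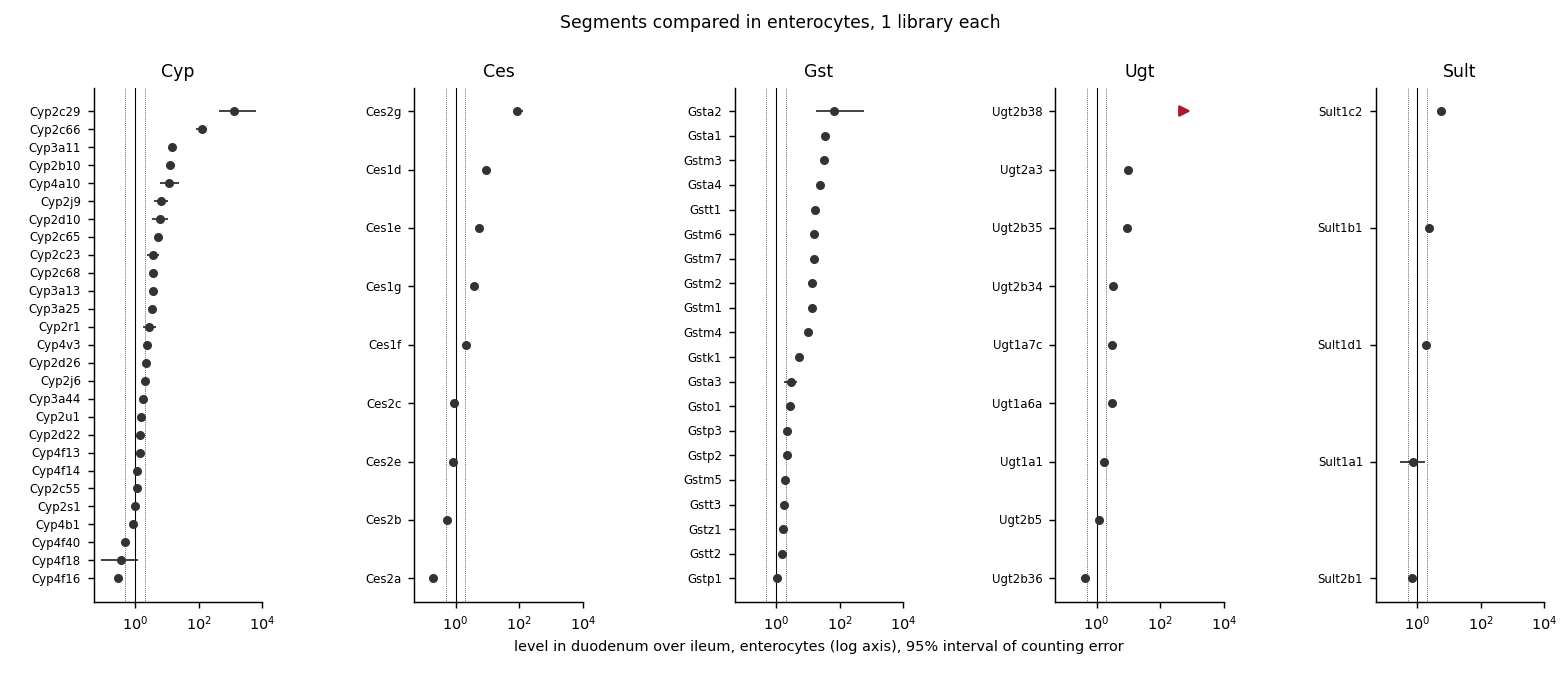
Points give the ratio of each member's level in enterocytes of the duodenum to that of the ileum (x axis, log scale, with lines at 1 and dotted lines at a fold of 2), with bars for the 95% interval of counting error and a triangle where the ileum held 0 UMIs and the ratio is a lower bound. Every Gst member lies to the right of 1, from Gstp1 at 1.08 to Gsta2 at 68.2, whereas Ces2a at 0.191 and Cyp4f16 at 0.286 lie to the left.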

How the data were processed

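Epithelial cells of the duodenum, jejunum and ileum of pooled wildtype mice were sequenced with the 10x Genomics method, 1 library per segment. The deposited values are whole UMI counts per gene and cell, which the authors made with Cell Ranger 3.0.2 on mm10 (GRCm38), without normalization. The filters of the study were applied (800 to 50000 UMIs, 200 to 6000 genes, at most 40% mitochondrial UMIs). Cells were integrated and clustered in Seurat 5.3.0 (R 4.3.3) on 2000 variable genes and 30 components, at resolution 0.8 and without the 155 candidate symbols, and clusters were named by marker lists. No doublet caller was run. Instead, cells above 30000 UMIs, or the 10% of cells richest in enterocyte markers in other classes, were left out as alternatives.

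UMIs were summed per library and class (at least 10 cells) or villus zone and compared with the quasi-likelihood test of edgeR 4.0.16 after filterByExpr and TMM scaling. The library was a block, p-values were adjusted by Benjamini-Hochberg with a threshold of 0.05, and score genes were left out of the villus test. Replicates of a segment did not exist, and the spread is that between the 3 segments of the same pool. Intervals are exact at 95% and cover counting error only. In counts simulated with 200 genes changed by a log2 fold change of 1, the villus test recovered 44% with 5 false calls, and the class tests recovered 25.5% (goblet), 22% (tuft), 11.5% (enteroendocrine) and 22.5% (crypt) with 8, 3, 1 and 9 false calls. So few changed genes are unlike the data, where 28.7% were called higher and 33.5% lower along the villus. These figures therefore do not give the power or error of the tests reported. Levels came from Python 3.11.15 (scipy 1.17.1, numpy 2.4.6, pandas 2.3.3).

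The members, marker lists and tests were chosen with earlier results of these data known. Genes are named where they were among the 6 most counted of a family, the 12 called with the largest change along the villus in each direction, the 8 called most above enterocytes in a class, or the 12 highest or lowest ratios of duodenum to ileum. Related genes are named only where called along the villus, up to 4 in each direction. Cyp2b10, Cyp2c55, Cyp2c65, Cyp2c68, Cyp2j9, Cyp3a25, Cyp4a10, Gstk1, Gstm1, Gstp2, Gstt2, Gstt3 and the Ugt1a members were named after their values were seen, Cyp2d10 for its place at the limit. Identifiers and positions come from GENCODE M21, in which all 70 members were found, and promoters from RefSeq. Alternatives covered normalization, the gene filter, DESeq2 1.42.0, the library block, cell filters, the villus score, the clustering, the fold limit and the leaving out of each library.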

Additional observations from a re-analysis of the deposited data

Results flagged for a closer look

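Cyp2b10, a P450 gene known as a target of the receptor CAR, went in opposite directions along the villus in different segments. In the ileum the level of its upper zone was 2.97 times that of its lower zone (95% interval 2.43 to 3.65), while in the jejunum it was 0.419 times (0.398 to 0.441) and in the duodenum 0.939 times. The counts behind the ileum are low, with 0.0926, 0.423 and 0.275 UMIs per 10000 in the lower, middle and upper zone, against 4.34, 3.75 and 1.82 in the jejunum. The intervals cover counting error only. With 1 library per segment the difference between segments was not tested.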

How the results depend on the processing

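The counts of members along the villus depended most on the library block. Without it, 1 member was higher and 9 were lower, against 12 and 39, and in goblet cells 1 and in tuft cells 0 were higher. With library totals in place of TMM, an alternative chosen after seeing the data, 7 were higher along the villus, and 2, 3 and 6 were higher in tuft, enteroendocrine and crypt cells. DESeq2 called 1, 2 and 4 higher in goblet, tuft and crypt cells, RLE size factors 5 in crypt cells, and a fit of 2 classes alone 2 in tuft and 4 in crypt cells. With a mitochondrial limit of 20%, and without the 10% of cells richest in enterocyte markers, 0 were higher in tuft cells. With 1 library left out in turn, 9 to 13 members were higher and 27 to 37 lower along the villus, and in goblet cells 0 to 2 were higher and 36 to 37 lower, in tuft cells 0 to 1 and 41 to 43, in enteroendocrine cells 1 to 1 and 33 to 40, and in crypt cells 2 to 3 and 36 to 40. The lowest values for goblet and tuft cells came without the jejunum, as did the 27. Apart from library totals, the share of all genes called under these alternatives is not given. These counts alone do not show whether members moved more than other genes.

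Between duodenum and jejunum, the number of members at least 2-fold higher in the duodenum was 14 with the mitochondrial limit of 20%, 16 with median-ratio scaling and 10 at a fold limit of 3, and the number lower was 1 at that limit. Between duodenum and ileum, 3 were lower with the mitochondrial limit of 20%, 3 in the middle villus zone and 2 at a fold limit of 3. In the middle zone alone, the number higher in the duodenum than in the jejunum was 37, and at most 2 were lower. The shares of all genes under these segment settings are not given either. Of the 51 member calls along the villus and the 6 higher calls in a class, none changed its direction under the alternatives run. Of their values under alternatives, 648 stayed on the same side of the threshold and 84 lost the call, 43 of them without the library block. Between segments, no replicate numbers link the libraries. No paired analysis was possible because each segment has 1 library, whereas zones and classes were compared within libraries through the library block. Depth limits the rarely counted members, whose levels in single classes rest on few UMIs.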
